A study of Populus ussuriensis with 2 samples.

Results

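The 5 loci described here encode glycosyltransferases of xylan synthesis: GT43A (Potri.006G131000), GT43B (Potri.016G086400), GT47C (Potri.009G006500), GAUT12.1 (Potri.001G416800) and GAUT12.2 (Potri.011G132600). The rule that picks them uses their names and locus IDs and no measured value, although they were proposed with earlier results of these data known, and all 5 were found among 36385 listed loci. They hold 6 of 65535 listed transcripts. RNA-seq was made of the lowest 0.5 cm of in vitro stem cuttings of Populus ussuriensis, a poplar, at day 14 after seedlings grown on Murashige and Skoog medium with sucrose had been cut. The labels name no genotype, treatment or second condition. Both libraries therefore form 1 group (n = 2), and nothing says whether they came from separate cuttings. What sets them apart is the spread of this pair of libraries alone, and it may be technical. The IDs are of the form used for Populus trichocarpa gene models, and the files pair none with a name, so neither tissue markers nor other xylan genes were examined by name.

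Xylan is the main hemicellulose of secondary walls in hardwoods, a chain of xylose units made in the Golgi apparatus and laid down with cellulose and lignin. GT43 proteins act in elongation of this backbone, and poplar GT43A and GT43B are counterparts of Arabidopsis IRX9. In dicots a short sequence of xylose, rhamnose and galacturonic acid sits at the reducing end of the chain. Arabidopsis FRA8 (also called IRX7), the counterpart of poplar GT47C, and Arabidopsis IRX8 (GAUT12) are required for normal amounts of that end sequence, although the reaction of each in it is less settled. GAUT12.1 and GAUT12.2 are the pair of poplar copies related to IRX8.

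Transcripts of both groups of enzymes were present at the stem base, and 1 locus stood far below the others. All 5 loci reached 1 FPKM (mapped fragments per kilobase of a transcript, out of every 1000000) in both libraries, as did 56.5% of all listed loci. FPKM is scaled by transcript length, so levels of different loci can be set side by side. In both libraries the order from high to low was GT47C, GAUT12.1, GT43A, GT43B and GAUT12.2. The ranges over the libraries did not overlap between neighbours in that order, except for GT43A and GT43B.

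GT47C, the FRA8 counterpart at the reducing end, was the highest of the 5. Its level was 136.0 FPKM in replicate 1 against 91.8 FPKM in replicate 2, or 113.9 ± 31.3 FPKM (SD, n = 2). Among the listed loci, which may be a part of all loci, it ranked 546th in replicate 1 and 906th in replicate 2. By itself GT47C held 42.9% of the FPKM summed over the 5 loci in replicate 1 and 42.6% in replicate 2.

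The GAUT12 copies were very unequal. GAUT12.1 reached 78.3 FPKM in replicate 1 against 57.6 FPKM in replicate 2, or 68.0 ± 14.7 FPKM (SD, n = 2), within the top 3.13% and 4.63% of listed loci. GAUT12.2 reached 6.25 FPKM in replicate 1 against 4.87 FPKM in replicate 2, or 5.56 ± 0.98 FPKM (SD, n = 2). The lower copy was thus listed as present but lay below the median of loci detected in both libraries, a median of 10.6 FPKM in replicate 1 against 10.7 FPKM in replicate 2.

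GAUT12.1 exceeded GAUT12.2 by 12.5-fold in replicate 1 and by 11.8-fold in replicate 2. On the log2 scale the difference of GAUT12.1 minus GAUT12.2 was 3.61 ± 0.06 (SD, n = 2). GAUT12.1 supplied 92.6% of the GAUT12 sum in replicate 1 and 92.2% in replicate 2. An exact test over 2 libraries cannot give a two-sided p under 0.5, so no test was made of any difference between copies.

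The GT43 copies were close to equal. GT43A had 50.0 FPKM in replicate 1 against 31.8 FPKM in replicate 2, or 40.9 ± 12.9 FPKM (SD, n = 2). GT43B had 46.8 FPKM in replicate 1 against 29.5 FPKM in replicate 2, or 38.2 ± 12.198 FPKM (SD, n = 2). Each copy differed more between the libraries than the copies differed from each other within a library. GT43A exceeded GT43B by 1.07-fold in replicate 1 and 1.08-fold in replicate 2, a log2 difference of 0.10 ± 0.0066 (SD, n = 2). GT43A supplied 51.7% of the GT43 sum in replicate 1 and 51.8% in replicate 2.

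**Figure D1:**
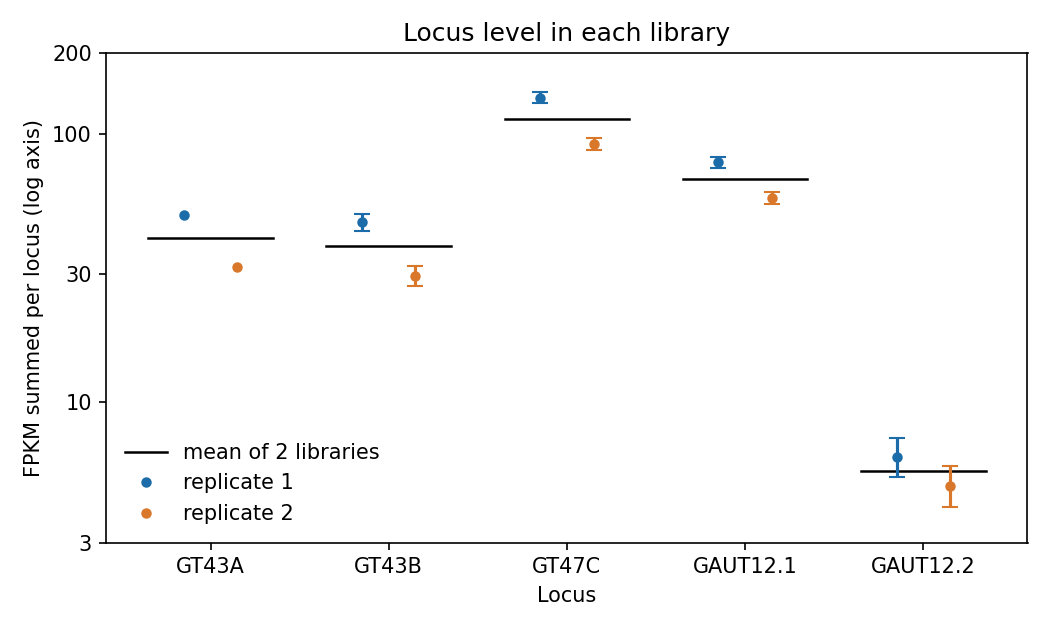
FPKM summed per locus (log axis) for the 5 loci in replicate 1 and replicate 2; black lines are means of 2 libraries, and error bars are 95% Poisson intervals of the recovered reads (counting error only, none for GT43A). GT47C is highest at 136.0 and 91.8 FPKM, GT43A and GT43B lie side by side, and GAUT12.2 is lowest at 6.25 and 4.87 FPKM.

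The deposited values keep a trace of the reads behind them, which gave the precision of 4 of the 5 loci. For loci with 1 listed transcript, the smallest whole reads and whole length that fit both FPKM values were recovered. That length is the one implied by the FPKM, and it may differ from the full length of the transcript. GT43B gave 706 reads in replicate 1 and 509 in replicate 2 with a length of 1377 bases. GT47C gave 1759 and 1356 reads with a length of 1180 bases. GAUT12.1 gave 1874 and 1574 reads with a length of 2183 bases. GAUT12.2 gave 145 and 129 reads with a length of 2118 bases. Even the lowest copy thus rested on over 100 reads in each library, if the recovery holds. True reads could be a multiple of these where reads and length share a factor.

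The intervals from these reads separated the GAUT12 copies, while for the GT43 copies no interval of their ratio was computed. The GAUT12.1 to GAUT12.2 ratio had a 95% exact binomial interval of 10.6 to 14.95 in replicate 1 and 9.89 to 14.3 in replicate 2. For GT43B the 95% exact Poisson interval was 43.4 to 50.4 FPKM in replicate 1, against 27.0 to 32.2 FPKM in replicate 2. Both GT43A values of 50.0 and 31.8 FPKM lie inside them, that of replicate 1 close to the upper bound. GT43A has no interval of its own, and those of GT43B would be narrower if its reads are a multiple of those given. GT43A was the higher copy in both libraries, and whether the copies differ beyond counting error was not tested. These intervals cover counting error only.

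GT43A was the only one of the 5 with more than 1 listed transcript, and the first held nearly all of its FPKM. Potri.006G131000.1 had 48.4 FPKM in replicate 1 against 30.6 FPKM in replicate 2. Potri.006G131000.2 had 1.57 FPKM in replicate 1 against 1.16 FPKM in replicate 2. The first transcript held 96.9% of the locus in replicate 1 and 96.3% in replicate 2, or 96.6 ± 0.37% (SD, n = 2). With it alone, the GT43A to GT43B difference was 0.05 on the log2 scale.

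No whole reads within the accepted lengths fitted either GT43A transcript, and fractions of reads were not tried. The smallest whole numbers for the first were 11596 and 8369, which would need a length of 21850 bases, and those for the second would need 64700 bases, against an accepted maximum of 16000 bases. How the authors' program shared out reads that fit several transcripts, or similar copies, is not given in the sources used here. The values of GT43A and GT43B, and of GAUT12.1 and GAUT12.2, are therefore uncertain as far as reads fit both copies of a pair.

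Summed by family, the GT43 and GAUT12 loci did not keep the same order in both libraries. The GT43 sum was 96.8 FPKM in replicate 1 against 61.3 FPKM in replicate 2. The GAUT12 sum was 84.6 FPKM in replicate 1 against 62.5 FPKM in replicate 2. The GT43 sum was 1.14 times the GAUT12 sum in replicate 1 and 0.981 times in replicate 2, so these families did not differ beyond their spread. GT47C exceeded the GT43 sum by 0.54 ± 0.06 on the log2 scale and the GAUT12 sum by 0.62 ± 0.09 (SD, n = 2).

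**Figure D2:**
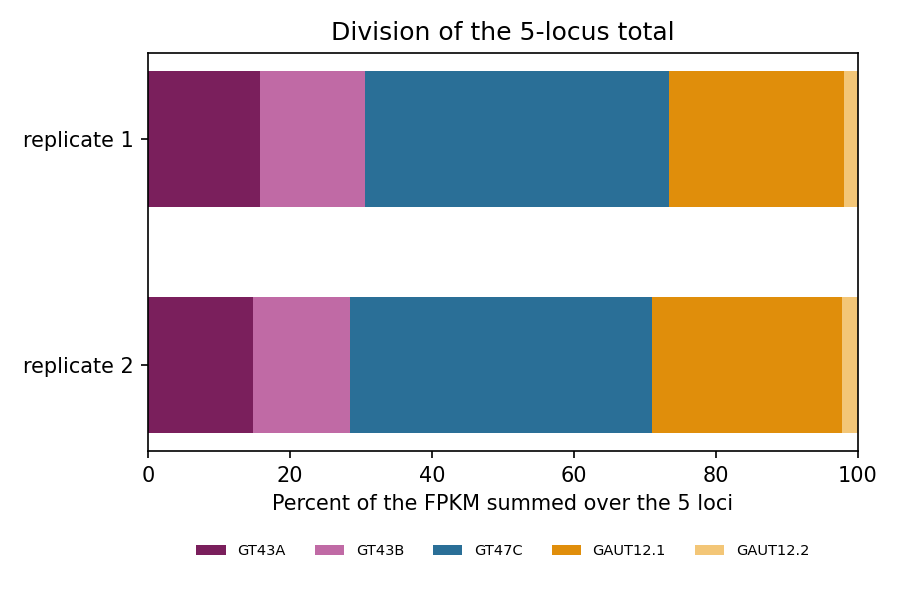
Share of the FPKM summed over the 5 loci (x axis, percent) held by each locus in replicate 1 and replicate 2. GT47C holds 42.9% and 42.6%, the GT43 pair 30.5% and 28.4%, and the GAUT12 pair 26.6% and 29.0%, nearly all of it GAUT12.1.

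All 5 loci were lower in replicate 2 than in replicate 1, as were 53.5% of the 21247 listed loci whose mean was 1 FPKM or more. Their sum was 317.4 FPKM in replicate 1 against 215.6 FPKM in replicate 2. The median log2 ratio of replicate 2 to replicate 1 was -0.57 over the 5 loci and -0.02 over those listed loci above 0 in both libraries. The labels describe the libraries alike, and in whole pieces of stem fewer cells of a type and less RNA per cell cannot be told apart. None of the 5 was 2-fold apart, against 5.03% of those 21247 loci in either direction and 2.03% lower in replicate 2. GT43A and GT43B were at least 1.5-fold lower in replicate 2, as were 6.98% of the same 21247 loci.

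By value the gap was widest for the GT43 loci, followed by GT47C and then the GAUT12 loci. The log2 ratio of replicate 2 to replicate 1 was -0.65 for GT43A and -0.66 for GT43B. It was -0.57 for GT47C, -0.44 for GAUT12.1 and -0.36 for GAUT12.2. As a fold, replicate 2 over replicate 1, GT43B had a value of 0.631 with a 95% exact binomial interval of 0.562 to 0.709. For GT47C it was 0.675 (0.628 to 0.725), for GAUT12.1 0.735 (0.687 to 0.787) and for GAUT12.2 0.779 (0.610 to 0.994). These intervals lie below 1, that of GAUT12.2 only just, and they compare 2 libraries, not conditions. Neighbouring intervals in this order overlap, and no test of a difference between these ratios was made.

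**Figure D3:**
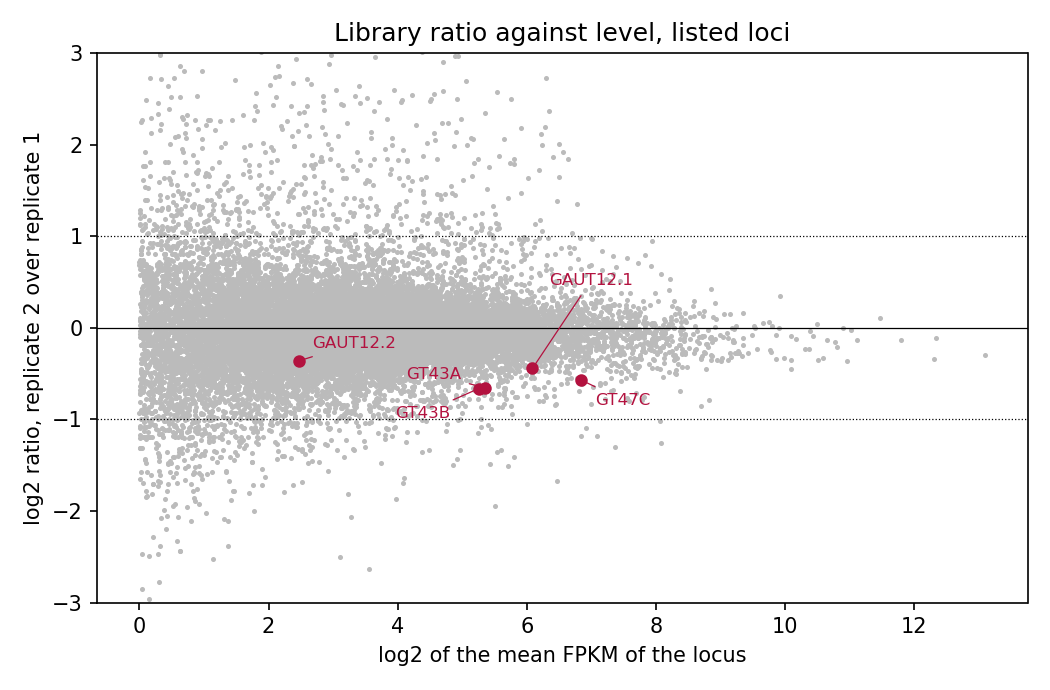
Log2 ratio of replicate 2 over replicate 1 against the log2 of the mean FPKM, for listed loci whose mean was 1 FPKM or more and above 0 in both libraries (grey) and the 5 xylan loci (red); dotted lines mark 2-fold, and 78 of 21231 loci lie outside the axis. The 5 loci lie between -0.66 and -0.36, below 0 and inside the 2-fold lines.

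Set beside loci of like level, the ratios of the GT43 loci and GT47C were toward the low edge and that of GAUT12.2 was not. Among 4732 loci with a mean within 2-fold of GT43A, 2.01% had a ratio as low as that of GT43A. The share was 1.89% of 5027 loci for GT43B and 2.80% of 1463 loci for GT47C. It was 5.21% of 2708 loci for GAUT12.1 and 17.0% of 8004 loci for GAUT12.2. The SD of the log2 ratio among such loci was 0.39 for GT43A and GT43B, 0.36 for GT47C, 0.37 for GAUT12.1 and 0.51 for GAUT12.2.

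Among the 4 loci with a recovered length, the shorter GT47C and GT43B had lower ratios than the longer GAUT12.1 and GAUT12.2. Within each of these pairs the shorter locus had the higher ratio, but the intervals of counting error overlap within each pair. The lengths of GAUT12.1 and GAUT12.2 are also close, at 2183 and 2118 bases. The order within the pairs therefore cannot show whether the ratios follow length. Other single-transcript loci with a recovered length within 20% of that of GT47C and at least 20 reads in both libraries had a median log2 ratio of -0.08 (1611 loci). The median was -0.07 for the length of GT43B (1836 loci), -0.01 for that of GAUT12.1 (1740 loci) and -0.01 for that of GAUT12.2 (1790 loci). These medians were thus also lower for the lengths of GT47C and GT43B. The part of length in the ratios of the 5 loci was not tested.

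Within the set, the proportions of the loci differed less between libraries than their levels. Across the 10 pairs of loci, the log2 difference between loci was 0.0094 to 0.30 apart from one library to the other. Each of these gaps follows from the library ratios of the 2 loci given above, so it is no separate result. Pairs of other loci were not examined, so whether such gaps are particular to this set was not tested. The smallest gap was in the GT43A and GT43B pair, whose ratio in replicate 2 was 1.01 times that in replicate 1. The log2 value of replicate 2 minus replicate 1 was -0.08 for GAUT12.1 over GAUT12.2 and -0.10 for GT43B over GT47C. The largest gap was in GT43B over GAUT12.2, from 7.49-fold (6.26 to 9.02) to 6.07-fold (4.99 to 7.42), with overlapping 95% intervals. GT43B over GAUT12.1 went from 0.597 (0.547 to 0.652) to 0.513 (0.463 to 0.567), also overlapping. Overlap of 2 intervals does not show that a ratio was unchanged, and no test of these gaps was made.

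Listed loci close in level to a xylan locus in both libraries were few, except for GAUT12.2. Within 0.1 on the log2 FPKM scale in both, GT43A had 9 such loci, GT43B had 10, GT47C had 3, GAUT12.1 had 19 and GAUT12.2 had 123. The counts depend on how many loci lie near each level. Of the loci that close in replicate 1, they were 2.68% of 336 for GT43A and 2.75% of 363 for GT43B. The share was 3.26% of 92 for GT47C, 9.18% of 207 for GAUT12.1 and 13.9% of 883 for GAUT12.2. A locus this close in replicate 1 is as close in replicate 2 only if its library ratio is similar. The shares thus follow largely from the library ratios given above and are no separate result. Such likenesses of level over 2 libraries of 1 group hold no pattern across conditions, so no locus is named.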

How the data were processed

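RNA-seq of 2 libraries of 1 group was used. Each deposited file gives 1 FPKM per transcript, computed by the authors, per the file headers. HISAT2 2.1.0 and Bowtie2 2.2.3 appear in the submitters' processing notes, without a stated role. What computed the FPKM is not given in the sources used here, nor are genome build, annotation and filters. Both files stop at 65535 transcripts, within ID number field 17, so the list may be incomplete. IDs beyond it were not analysed here, and ranks, listed sums, shares of loci and values scaled to the listed sum hold for the listed part alone.

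FPKM were summed per locus (the ID without its last number) and used as deposited, with Python 3.11.15, numpy 2.4.6, pandas 2.3.3 and scipy 1.17.1. Values are given per library with mean and SD. No test between conditions was possible. The 5 loci and their 6 transcripts were named by a fixed list, and the members and settings were chosen with earlier results of these data known. The plan's xylan and wall gene symbols could not be matched to IDs and were not used.

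The files give no depth. Whole reads were recovered after the data were seen, from the ratio of both FPKM values (relative tolerance 1e-08). The smallest fitting pair, with a product of reads up to 2500000, was scaled up where needed. Scaling stopped at the first whole length of 100 to 16000 bases, within 0.01. For GAUT12.1 the smallest pair was 937 and 787, so its reads were scaled up. Totals of 10957286 reads in replicate 1 and 12513099 in replicate 2 were implied, if lengths have no common factor. Of 12813 loci with 1 listed transcript and above 0 in both libraries, 77.7% gave such reads. Tested on 2420 simulated loci, the recovery returned 79.9% exactly and 94.0% up to a common factor. The simulation assumed whole reads, a whole length alike in both libraries and no reads shared between transcripts. Most simulated loci had fewer reads than GT43B, GT47C and GAUT12.1, so these shares may not hold for them. Intervals (95%, exact Poisson or Clopper-Pearson) cover counting error only. Alternatives were scaling, pseudocounts, detection minimums, folds, transcript filters and leaving out each replicate.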

Additional observations from a re-analysis of the deposited data

How the results depend on the processing

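Of 72 recomputed values, 64 stayed within the replicate spread, the counting interval or 1.5 times the count, as fits each. No log2 difference or ratio among them changed direction. Many of the 64 could not have moved, so their number is no measure of robustness. For a mean of 2 libraries, the value of either one always lies within their SD. Choosing or filtering transcripts cannot change a locus that has 1 transcript above the minimum. Leaving out a replicate gave a GT43A to GT43B difference of 0.10 to 0.11 (log2), and a GAUT12.1 to GAUT12.2 difference of 3.57 to 3.65. With the leading transcript alone the GT43 difference moved to 0.051. That move was judged against the SD of 2 values, which is smaller than counting error. With a pseudocount of 1 FPKM the GAUT12 difference moved to 3.39. At 1.5-fold, 2 loci were apart between the libraries in place of 0. Both were lower in replicate 2, as were 6.98% of the 21247 listed loci with a mean of 1 FPKM or more. Scaled to a listed sum of 1000000 in each library, the mean levels were 74.8 for GT43A, 69.9 for GT43B, 208.6 for GT47C, 124.6 for GAUT12.1 and 10.2 for GAUT12.2. All 5 loci were detected at minimums of 0.1, 1 and 5 FPKM except GAUT12.2, which fell below 5 FPKM in replicate 2, leaving 4. At 1 FPKM 56.5% of all listed loci were detected, and the shares at 0.1 and 5 FPKM were not computed. All 5 stayed lower in replicate 2 under the same listed sum and under median-of-ratios scaling, checks chosen after seeing the data. As deposited, 53.5% of the 21247 listed loci were lower, and that share was not recomputed under either scaling. These scalings moved each log2 ratio up by less than 0.1. No paired analysis was possible because there is no second group to pair with; the differences between copies are already taken within each library. Depth limits GAUT12.2 most, at 145 and 129 reads.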

Other observations

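The 2 loci before and the 2 after each xylan locus in the ID list were examined, with list order standing in for position because no coordinates were used. GT47C and GAUT12.1 each exceeded all 4 flanking loci, the highest of which had a mean of 11.4 FPKM beside GT47C and 37.5 FPKM beside GAUT12.1. GAUT12.2, in contrast, was the lowest of its 5, with flanking means of 9.25 to 39.2 FPKM. GT43A and GT43B each ranked 2nd of 5. Of the 20 flanking loci, 15 averaged 1 FPKM or more, a level that 21247 of the 36385 listed loci reached. Counted over all 20 flanking loci, whatever their level, 13 were lower in replicate 2. The share among those 21247 loci was 53.5%, which leaves out loci of lower level. Neither flanking count was tested against the listed loci. The flanking loci were counted after the data were seen.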
